A study of Homo sapiens with 2 samples.

Results

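The genes described here encode enzymes and subunits that reshape chromatin, grouped in 6 families: the CHD remodellers, the KDM histone demethylases, the KMT histone methyltransferases, the HDAC and SIRT deacetylases, and the SMARC subunits and ATPases of remodelling complexes. Members were chosen by symbol alone, as genes whose probe set carries a single symbol beginning with SMARC, or with CHD, KDM, KMT, HDAC or SIRT and a digit, and Y-linked genes were left out. This gave 65 of the 18417 genes named on the array: 10 CHD, 17 KDM, 8 KMT, 11 HDAC, 7 SIRT and 12 SMARC genes. The cells were U251, a long-established line from a human glioblastoma, grown in high-glucose DMEM and given the solvent DMSO or 5 µM G-TPP for 6 h. G-TPP is a Gamitrinib, an Hsp90 inhibitor joined to the lipophilic cation triphenylphosphonium, which carries it into mitochondria, and the study asked how mitochondrial genes respond when the Hsp90 chaperones there are targeted. Each condition was measured on 1 array, so no difference below has a replicate check, no error or p-value can be given, and "higher" and "lower" refer to this one G-TPP array set against this one DMSO array.

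DNA is wound around histones, and the marks on histone tails govern how readily a gene is read. Methyltransferases write methyl groups on lysines and demethylases erase them, either with a flavin cofactor (KDM1A and KDM1B) or with the iron and 2-oxoglutarate chemistry of the JmjC domain (the other KDM enzymes). HDAC enzymes remove acetyl groups with a zinc ion, sirtuins do so with NAD, and remodellers of the CHD, SWI/SNF and ISWI kinds use ATP to slide or eject nucleosomes.

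Demethylase genes were mostly higher in the G-TPP array, HDAC genes were mostly slightly lower, and the non-catalytic subunits of SWI/SNF differed little. Of the 65 members, 61 passed a brightness filter, under which the brighter array had to reach an intensity of 239.2 (the middle value when each probe set is taken at its brighter array). At least 2-fold higher with G-TPP were 4 of the 61 (6.56%), namely KDM7A, CHD2, KDM4A and KDM6A, against 2.80% of all 11091 genes that passed the filter. KDM7A passed the filter only through the G-TPP array. With DMSO it was under the array's floor, so its fold can be given only as a lower bound, and that bound is below 2-fold. At least 2-fold lower was 1 member, CHD7, against 0.550% of all genes, and after lowess centring on brightness these counts were 4 and 0. At the smaller size of 1.5-fold, 9 members (14.8%) were higher and 2 (3.28%) lower, against 7.37% and 3.23% of all genes. The members as a whole were not shifted, with a median log2 difference, G-TPP minus DMSO, of -0.05 against -0.04 for all genes that passed, and a mean of 0.11. In all, 26 of the 61 (42.6%) were above 0, against 44.0% of all genes.

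**Figure D1:**
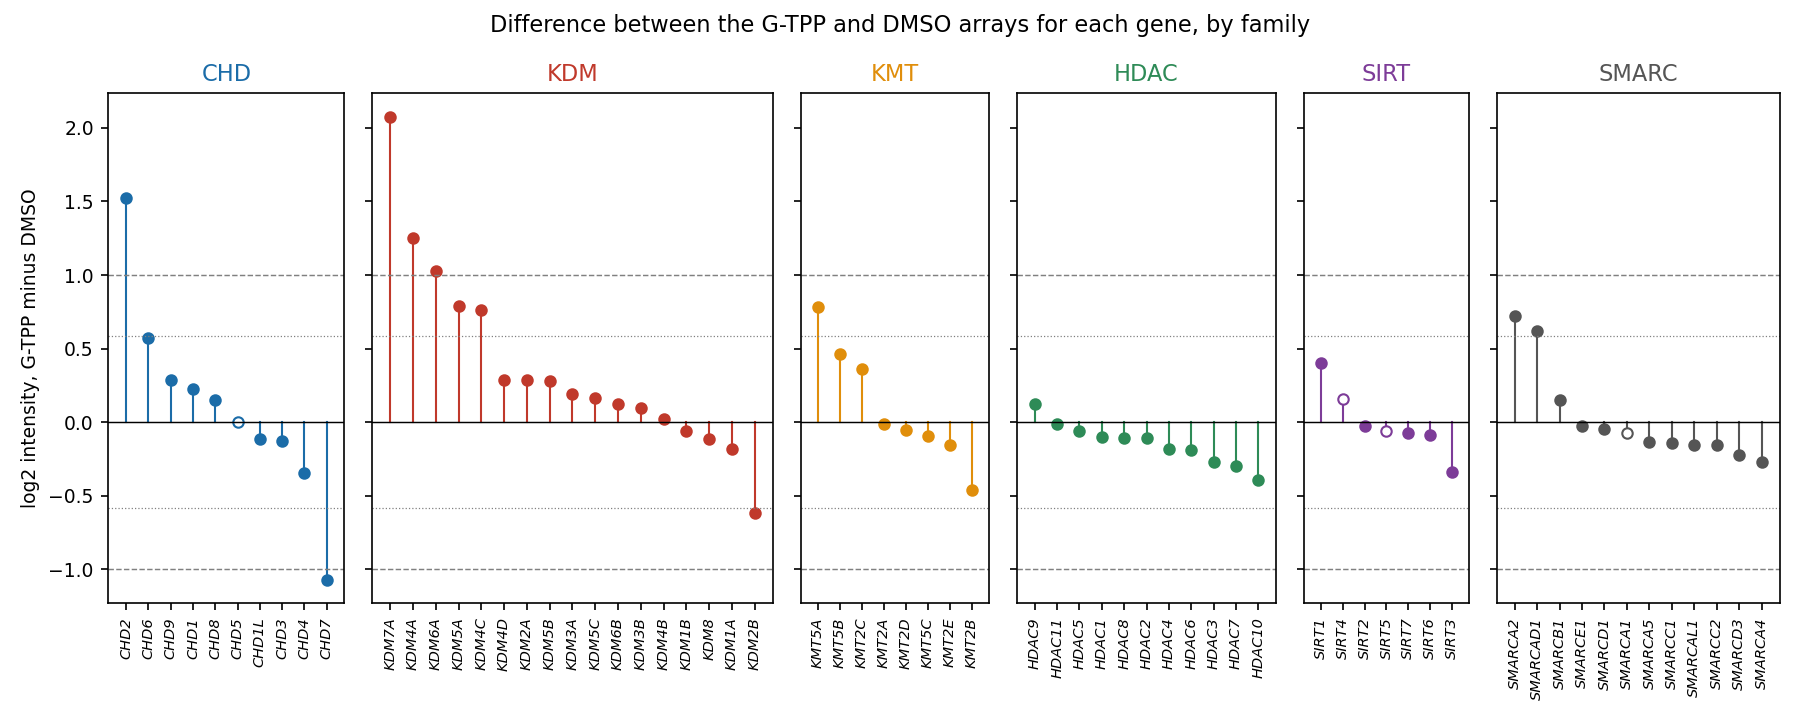
Each point is a gene, placed by its log2 intensity in the G-TPP array minus that in the DMSO array (vertical axis) within its family, with open points for the 4 genes under the brightness filter, dashed lines at 2-fold and dotted lines at 1.5-fold. The KDM panel holds 3 of the 4 genes above the upper dashed line, among them KDM7A, drawn at its measured value although its DMSO value is under the floor, and the HDAC panel has 10 of 11 genes below 0.

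The promoters of the 4 members counted as at least 2-fold higher by their measured values are shown, as the largest differences in the upward direction. They run from 250 bases before to 50 after the gene start and come from RefSeq on build GRCh38.p14, read 5′ to 3′ on the gene's strand. Capitals mark CCAAT boxes, the site of the factor NF-Y, in the reverse orientation. KDM7A lies at chr7:140176934-140177233 (minus strand), CHD2 at chr15:92900074-92900373, KDM4A at chr1:43649899-43650198 and KDM6A at chrX:44872938-44873237 (all plus strand).
KDM7A: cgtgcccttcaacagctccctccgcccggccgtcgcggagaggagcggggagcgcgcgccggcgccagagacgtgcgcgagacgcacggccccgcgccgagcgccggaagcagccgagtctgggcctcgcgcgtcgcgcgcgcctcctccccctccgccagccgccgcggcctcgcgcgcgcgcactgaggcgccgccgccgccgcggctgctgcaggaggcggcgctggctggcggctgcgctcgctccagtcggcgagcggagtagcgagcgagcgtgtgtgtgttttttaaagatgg
CHD2: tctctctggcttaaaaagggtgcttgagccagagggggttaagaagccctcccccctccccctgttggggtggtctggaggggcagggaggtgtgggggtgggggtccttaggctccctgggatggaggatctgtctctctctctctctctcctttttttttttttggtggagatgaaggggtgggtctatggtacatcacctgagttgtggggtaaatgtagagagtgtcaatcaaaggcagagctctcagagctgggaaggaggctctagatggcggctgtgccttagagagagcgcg
KDM4A: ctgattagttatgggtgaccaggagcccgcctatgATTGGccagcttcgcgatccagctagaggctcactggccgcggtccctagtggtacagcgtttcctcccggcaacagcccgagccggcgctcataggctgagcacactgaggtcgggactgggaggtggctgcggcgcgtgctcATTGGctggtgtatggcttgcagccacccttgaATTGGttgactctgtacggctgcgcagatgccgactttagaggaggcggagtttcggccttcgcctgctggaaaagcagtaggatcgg
KDM6A: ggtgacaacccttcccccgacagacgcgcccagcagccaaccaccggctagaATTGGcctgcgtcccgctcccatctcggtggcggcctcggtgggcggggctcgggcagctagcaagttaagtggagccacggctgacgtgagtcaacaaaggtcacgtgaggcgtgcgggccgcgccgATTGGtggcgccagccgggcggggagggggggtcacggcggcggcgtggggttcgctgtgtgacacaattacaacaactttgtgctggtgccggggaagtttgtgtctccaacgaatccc

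The KDM4A promoter holds 3 CCAAT boxes and the KDM6A promoter 2, while KDM7A and CHD2 hold none in these windows. KDM7A is the richest in G and C at 77.0%, against 56.0% for CHD2, 61.0% for KDM4A and 66.3% for KDM6A, and the median over 58 member promoters was 66.2%. A CCAAT box on either strand stood in 19 of those 58 promoters (32.8%) and in 34.6% of all 35116 promoters of this length. Of 7 motifs searched on both strands, the C/EBP-ATF element (TGATGNAA), the ER stress element (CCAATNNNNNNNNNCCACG, which contains a CCAAT box), the XBP1 element (TGACGTGG) and the heat shock element (GAANNTTCNNGAA) were in 0 of the 58. Their shares were 3.62%, 0.0769%, 0.729% and 0.490% of all promoters, and 1.78%, 0.156%, 0.973% and 0.279% of the 8946 promoters of genes that passed the filter. The antioxidant element (TGACNNNGC) was in 5 member promoters, KDM4C among them, against 13.3% of all and 15.4% of those that passed, and the CRE (TGACGTCA) in 1, that of SIRT4, against 1.85% and 3.39%. A match is a string of letters, not a bound site, and no match says only that those letters are not in this window. Promoters of CHD5, CHD6, CHD7, HDAC5, SIRT7, SMARCC1 and SMARCC2 were not matched.

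The 17 KDM genes, which all passed the filter, gave the largest block of high values. Their median log2 difference was 0.19, 13 of the 17 were above 0, 5 were at least 1.5-fold higher and 1 at least 1.5-fold lower. KDM4C, KDM4D and KDM7A, among the 13, passed the filter only through the G-TPP array, so the filter fixed their signs. KDM4C and KDM7A are also among the 5. KDM8 passed only through the DMSO array, which fixed its sign below 0. Of all genes that passed, 44.0% were above 0, 7.37% at least 1.5-fold higher and 3.23% at least 1.5-fold lower. The 44.0% is also the share to set beside the counts of signs in the other families. The 7.37% and 3.23% stand likewise beside their counts at 1.5-fold. Within KDM, KDM4A and KDM6A were at least 2-fold higher, and KDM7A by its measured value but not by its bound. Among the 15 JmjC members the median was 0.28 with 13 above 0, whereas the flavin-dependent KDM1A (LSD1, the H3K4 eraser of the CoREST corepressor) went from 1820 to 1606 and KDM1B from 684.7 to 656.3. The KDM median stayed above 0 under each alternative processing tried, from 0.19 to 0.24, and was 0.38 as a mean.

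KDM7A, a JmjC eraser of H3K9 and H3K27 methylation, was at 67.9 with DMSO and 286.3 with G-TPP. The DMSO value lies within the range of the olfactory receptor genes, little expressed outside the nasal epithelium, whose 95th percentile was 172.9 with DMSO, which serves as the floor. Set against it KDM7A was at least 1.66-fold higher, and the count of members at 2-fold was then 3.

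KDM4A, which erases H3K9 and H3K36 methylation, went from 483.7 to 1154 (2.39-fold higher), and its relative KDM4C from 224.0 to 379.2 (1.69-fold higher). The other members of this subfamily differed less, with KDM4D at 197.7 and 240.8 and KDM4B at 343.3 and 348.0. All 4 KDM4 genes were therefore brighter in the G-TPP array, over a range of log2 differences from 0.02 to 1.25. KDM4C, KDM4D and KDM7A passed the filter only through the G-TPP array and KDM8 only through the DMSO array. All 17 genes passed, so leaving out the filter could not change the family's median and is no check on these genes. A filter on both arrays was not tried.

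KDM6A (UTX), the X-linked H3K27 demethylase that works within the KMT2C and KMT2D complexes, went from 485.4 to 990.1, 2.04-fold higher. Its paralog KDM6B (JMJD3), an inducible H3K27 demethylase, was at 426.0 and 463.7, a log2 difference of 0.12. KDM5A, an H3K4 demethylase known as a binding partner of the retinoblastoma protein, went from 614.3 to 1064 (1.73-fold higher), and KDM5B and KDM5C were 1.21-fold and 1.12-fold higher. The H3K9 erasers KDM3A and KDM3B had log2 differences of 0.19 and 0.10.

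KDM2B went the other way. This H3K36 demethylase brings a Polycomb complex to CpG islands, and it was at 512.1 with DMSO and 334.7 with G-TPP, 1.53-fold lower, while its paralog KDM2A was at 736.8 and 897.1, 1.22-fold higher. KDM2B was under 1.5-fold when all genes were centred on their median, with a log2 difference of -0.57, and after lowess centring, with -0.55. KDM8, a JmjC protein that acts as a hydroxylase, had log2 differences of -0.12 and 0.11 by its 2 probe sets, of which the second lay under the filter.

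**Figure D2:**
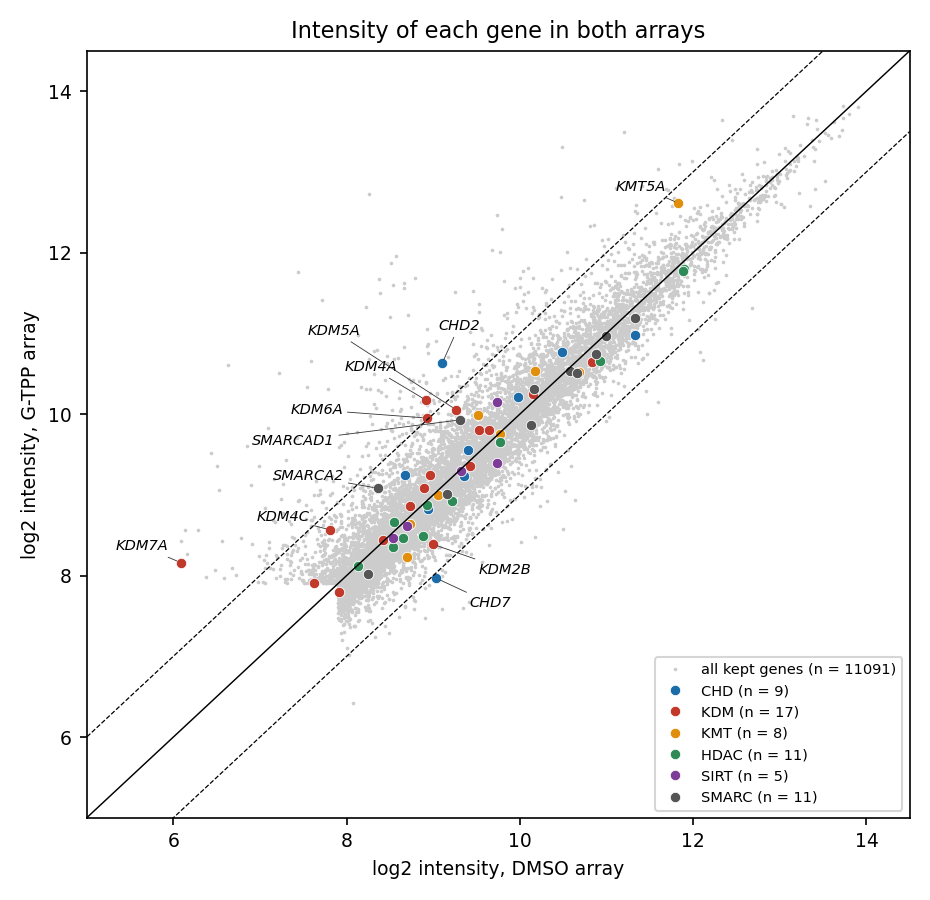
Log2 intensity with DMSO (horizontal axis) against log2 intensity with G-TPP (vertical axis) for the 11091 genes that passed the filter (grey) and the 61 members among them (coloured by family), with the line of equality and dashed lines at 2-fold; the 11 members at least 1.5-fold apart are named. KDM7A stands at the far left because its DMSO value is under the floor, and CHD7 lies on the lower dashed line.

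Among the CHD remodellers, 9 of 10 passed the filter, with a median log2 difference of 0.15, and both ends of the family were past 2-fold. CHD2, a remodeller that acts at active genes, went from 549.7 to 1582, 2.88-fold higher, and 99.1% of all genes that passed the filter had a smaller difference. Its close relative CHD1, which reads H3K4 methylation, was at 1010 and 1184 (1.17-fold higher). The CHD6 value went from 410.1 to 608.6, 1.48-fold higher and just under the smaller threshold, which it passed after centring.

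CHD7, a remodeller known for its part in neural crest and neural stem cells and mutated in CHARGE syndrome, went from 525.1 to 250.2, 2.10-fold lower. It was the member with the lowest difference, and 0.406% of all genes lay below it. Lowess centring put CHD7 at a log2 difference of -0.99, just under 2-fold. Its relatives of the same subfamily, CHD8 and CHD9, were 1.11-fold and 1.22-fold higher, so this subfamily held values on both sides of 0.

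The ATPases of the NuRD complex, which couples remodelling to deacetylation, were slightly low. CHD4 was at 2566 and 2018 (1.27-fold lower) and CHD3 at 654.6 and 600.0 (1.09-fold lower), while CHD5, mostly neuronal, was under the filter at 206.0 in both arrays. CHD1L, a remodeller recruited by poly(ADP-ribose), had a log2 difference of -0.11.

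All 8 KMT genes passed, with 3 above 0, 5 below and a median log2 difference of -0.03, close to that of all genes. The highest and the next highest were H4K20 methyltransferases. KMT5A (SET8), which writes the first methyl group there and is tied to the cell cycle, went from 3642 to 6262 by its brightest probe set, 1.72-fold higher. Its other probe sets were 1.74-fold and 1.20-fold higher, so 2 of 3 gave a like difference and the mean over all 3 was 0.61 on the log2 scale. The gene table lists 3 KMT5A pseudogenes, and signal from near-identical copies cannot be separated here. KMT5B, which adds further methyl groups at H4K20, was at 734.6 and 1014 (1.38-fold higher), whereas KMT5C, which also acts at H4K20, was at 426.3 and 399.1, a log2 difference of -0.10.

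The KMT2 genes, most of which encode the H3K4 methyltransferases of the MLL kind, split. KMT2C was at 1153 and 1480 (1.28-fold higher) and KMT2B at 413.5 and 300.6 (1.38-fold lower), the highest and the lowest of the group. KMT2A, KMT2D and KMT2E had log2 differences of -0.01, -0.05 and -0.16, and no KMT2 gene reached 1.5-fold. KMT2E is not counted among the H3K4 writers in the grouping by mark below. The family's median was above 0 after median centring (0.01) and at a filter on the 75th percentile (0.36), so no direction is given for it.

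The HDAC genes were the most uniform family. All 11 passed the filter, 10 were below 0, and the median log2 difference was -0.11 against -0.04 for all genes. None reached 1.5-fold in either direction, where 7.37% of all genes were higher and 3.23% lower by that size. With 11 genes, a count of 0 is near those shares. HDAC10, a polyamine deacetylase, was lowest at 471.4 and 359.0 (1.31-fold lower), and HDAC9 of class IIa was the 1 gene above 0, at 373.8 and 406.6.

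Class I, of which HDAC1, HDAC2 and HDAC3 work in nuclear corepressor complexes, had log2 differences from -0.27 to -0.10. HDAC1 was at 3821 and 3561 and HDAC2 at 3779 and 3510, log2 differences of -0.10 and -0.11, and HDAC8 was also at -0.11. HDAC3, the catalytic subunit of the NCoR and SMRT complexes, was at 1949 and 1619, 1.20-fold lower. In class IIa, whose members shuttle between nucleus and cytosol, HDAC7, HDAC4 and HDAC5 had log2 differences of -0.29, -0.18 and -0.06. HDAC6, the cytosolic tubulin deacetylase, was at -0.19 and HDAC11 at -0.01. These sizes are near the scatter of 0.17 per probe set that pairs of probe sets of 1 gene show over 328 genes. After median centring 9 of the 11 were below 0 and the median was -0.06.

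Of the 7 sirtuins, 5 passed the filter and 4 of the 5 were below 0. None reached 1.5-fold, which with 5 genes is near the shares of all genes, 7.37% higher and 3.23% lower. SIRT1, the nuclear deacetylase of p53 and PGC-1alpha, was highest at 854.9 and 1132 (1.32-fold higher). SIRT3, the main deacetylase of the mitochondrial matrix, was lowest at 850.2 and 672.2 (1.26-fold lower).

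The other mitochondrial sirtuins lay under the filter, SIRT4 at 96.5 and 107.9, within the range of the floor, and SIRT5, a desuccinylase, at 187.0 and 179.8. SIRT2, mostly cytosolic, and the nuclear SIRT6 and SIRT7 had log2 differences of -0.03, -0.09 and -0.07. The family's median was -0.07, but at the 75th percentile filter it was 0.03, so no direction is given for it.

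**Figure D3:**
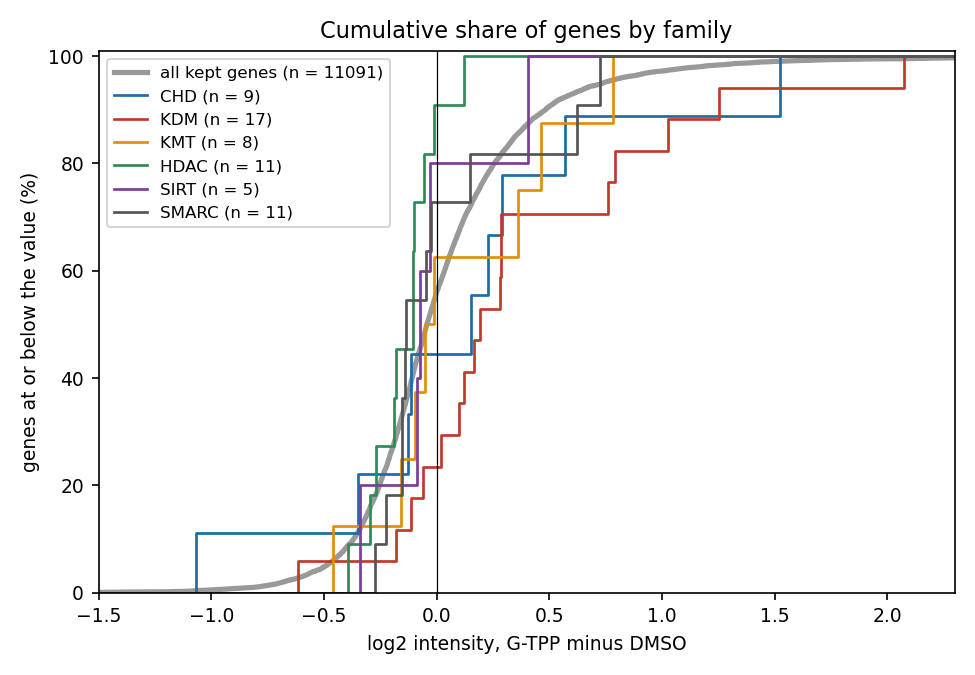
Share of genes (vertical axis, in percent) whose log2 intensity difference, G-TPP minus DMSO, lies at or below the value on the horizontal axis, for each family and for all 11091 genes that passed the filter (thick grey line). The KDM line runs to the right of the grey line over most of its course, with a median of 0.19, and the HDAC line ends at 0.12, the value of HDAC9.

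Among the SMARC genes 11 of 12 passed, 8 of them below 0 with a median log2 difference of -0.13, although the mean was 0.03 because 2 members were at least 1.5-fold higher. SMARCA2 (BRM) and SMARCA4 (BRG1) are the alternative motors of SWI/SNF, and they differed in opposite directions. SMARCA2 went from 327.9 to 542.0, 1.65-fold higher, and SMARCA4 from 1122 to 929.5, 1.21-fold lower. SMARCAD1, a remodeller of heterochromatin upkeep and DNA end resection, went from 632.6 to 973.8, 1.54-fold higher.

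The non-catalytic SWI/SNF subunits stayed within narrow bounds, with log2 differences between -0.23 (SMARCD3, at 303.3 and 259.5) and 0.15 (SMARCB1, the core subunit lost in rhabdoid tumours, at 1150 and 1276). The scaffold subunits SMARCC1 and SMARCC2 were at -0.14 and -0.16, SMARCD1 at -0.05 and SMARCE1 at -0.02. SMARCA5, the ISWI motor, was at 1886 and 1719 (a log2 difference of -0.13), its paralog SMARCA1 was within the range of the floor in both arrays at 116.1 and 110.2, and SMARCAL1, which rewinds stalled replication forks, was at -0.15. The probe set for SMARCD2 also carries another symbol, so that gene is not a member.

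Set beside the enzymes that write the same marks, the KDM3 and KDM4 erasers of H3K9 methylation were brighter with G-TPP while most writers were dimmer. This grouping was made after the values were seen and is a description that depends on the genes picked. The 6 KDM3 and KDM4 genes were above 0, with a median log2 difference of 0.24. The 5 picked H3K9 writers that passed the filter were below 0, with a median of -0.30. Other genes linked to H3K9 demethylation were left out of the eraser group and lay on both sides, PHF2 at -0.20, HR at -0.31, PHF8 at 0.46 and KDM7A above 0. Of the picked writers EHMT2 (G9a) was 1.38-fold, SUV39H2 1.31-fold, SUV39H1 1.23-fold, SETDB1 1.22-fold and EHMT1 1.14-fold lower. SETDB2, under the filter, was at 0.08, above the eraser KDM4B at 0.02. Other lysine methyltransferases linked to H3K9 were left out of the writers and lay on both sides, PRDM2 at 0.06 and MECOM at -0.34. The signs of the genes in both groups that passed the filter held after median centring, lowess centring and quantile normalization. These settings rescale the same 2 arrays and the same picked genes, so they are no separate check. Adding 16 to each value cannot change a sign. KDM4C and KDM4D passed the filter only through the G-TPP array, where they were brighter.

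For H3K4 the medians were 0.16 over 5 erasers and -0.13 over 6 writers, both smaller in size than the 0.17 scatter of paired probe sets. The erasers KDM1A (-0.18) and KDM1B (-0.06) were below 0, and 1 writer, KMT2C, was above 0. After median centring 2 writers were above 0. On the H3K27 side the 3 erasers ranged from 0.12 to 2.08, KDM7A being under the floor with DMSO. The Polycomb writers pointed both ways, EZH2 1.42-fold higher (2669 and 3778) and EZH1 1.31-fold lower. For H3K36 the erasers ranged from -0.61 (KDM2B) to 1.25 (KDM4A) and the writers from -0.01 (NSD1) to 0.48 (SETD2), and both sides had medians above 0, at 0.28 and 0.10.

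**Figure D4:**
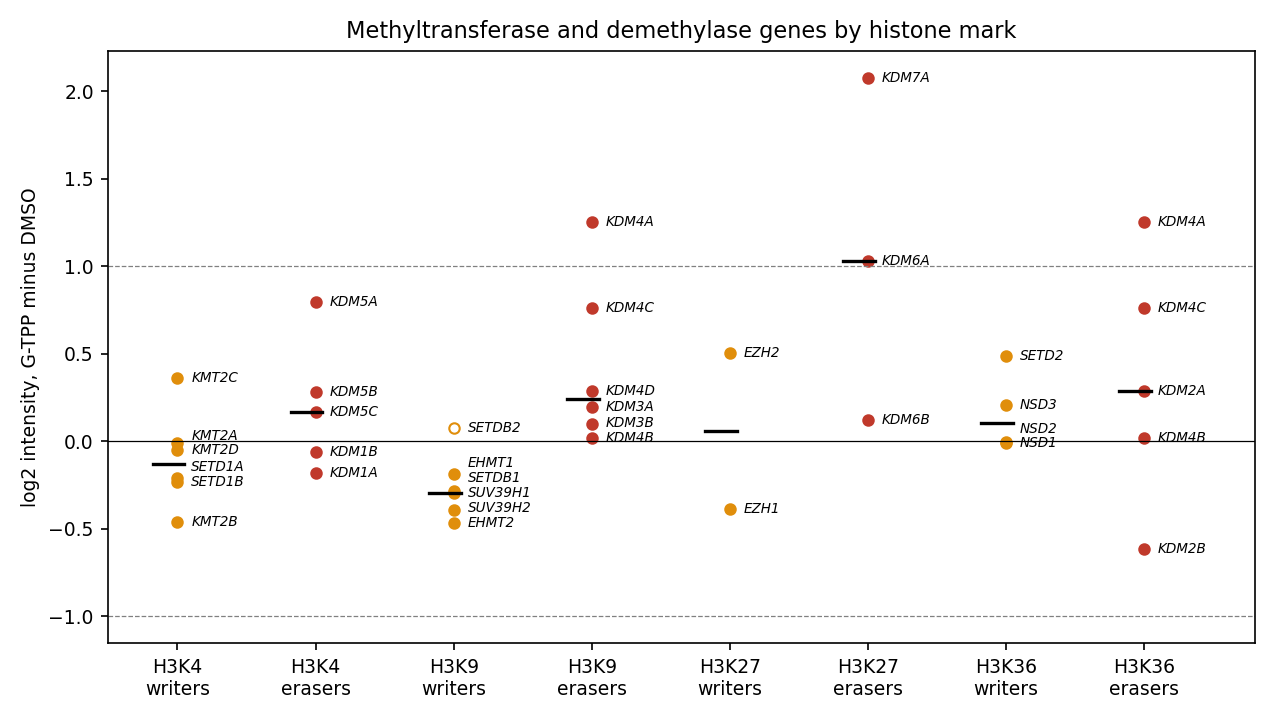
Log2 intensity difference, G-TPP minus DMSO (vertical axis), of genes that write (orange) or erase (red) methylation at 4 histone H3 lysines, with open points for genes under the filter and black bars for the median of the others. KDM4A, KDM4B and KDM4C appear under both H3K9 and H3K36. The H3K9 writers drawn here that passed the filter run from -0.47 to -0.19 and the erasers drawn here from 0.02 to 1.25. The open point of SETDB2 lies among the erasers' values, and KDM4C and KDM4D passed only through the G-TPP array.

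Partners that share complexes with the members were described by lists drawn up from general knowledge. Over all 13 lists 225 genes passed the filter, with a median log2 difference of -0.04. Of the 225, 12 were at least 1.5-fold higher and 7 at least 1.5-fold lower, against 7.37% and 3.23% of all genes. At 2-fold there was 1 gene in each direction, JMJD1C higher and CBX6 lower, against the 2.80% and 0.550% of all genes. The share of all genes above 0, to set beside the counts of signs in each list, was 44.0%.

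Genes for JmjC proteins outside the KDM names, 12 in all, had a median of 0.22, and 7 were above 0. JMJD1C, a relative of KDM3A and KDM3B, went from 782.3 to 1815 (2.32-fold higher), JMJD6 was 1.66-fold higher, and HR (hairless) was the lowest at -0.31. The list of histone acetyltransferases and associated subunits had 17 of 26 genes above 0 and a median of 0.13, with the coactivator CREBBP at 1369 and 2272 (1.66-fold higher) and JADE2 lowest (1.38-fold lower).

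Partners of ISWI and INO80 remodellers had a median of 0.09 over 26 genes, from BAZ1A at -0.55 to ACTR6 at 0.66. Those of SWI/SNF had a median of -0.05 over 20 genes, with BCL11A, a subunit that is also a zinc finger factor, from 664.7 to 350.3 (1.90-fold lower) and ARID1A highest at 0.37. NuRD partners kept within -0.19 (MBD3) and 0.11 (MBD2) over 10 genes.

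Corepressor partners of the HDAC enzymes had a median of -0.05 over 21 genes, with TBL1X, an NCoR subunit, at 292.7 and 561.6 (1.92-fold higher) and RCOR2 lowest at -0.49. COMPASS partners of the KMT2 enzymes had a median of -0.20 over 16 genes, with 11 below 0, from MEN1 (menin) at 928.6 and 613.3 (1.51-fold lower) to PSIP1 at 0.31. Polycomb genes had a median of -0.06 over 25 genes. CBX6, a chromodomain subunit of Polycomb repressive complexes, went from 1384 to 620.4 (2.23-fold lower), and JARID2, a substrate-guiding partner of EZH2 and itself a JmjC protein without demethylase activity, was 1.73-fold higher.

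**Figure D5:**
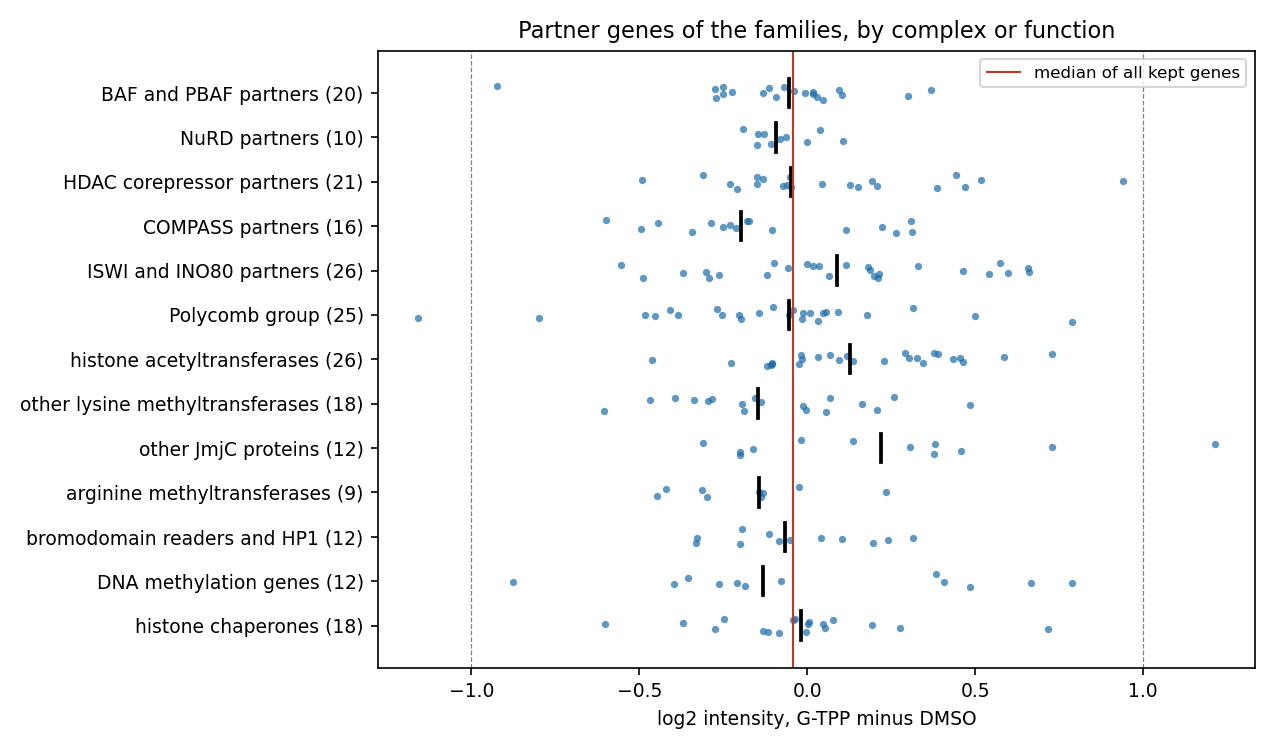
Log2 intensity difference, G-TPP minus DMSO (horizontal axis), of each gene in 13 partner lists, with the number of genes that passed the filter in brackets, black bars at the list medians, a red line at the median of all genes (-0.04) and dashed lines at 2-fold. JMJD1C (1.21) and CBX6 (-1.16) lie beyond the dashed lines, and the JmjC list has the highest median at 0.22.

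The arrays were alike in overall level, with median intensities of 224.8 (DMSO) and 215.5 (G-TPP) over 33297 probe sets. As a check of the culture, 9 of 12 astroglial and glioma markers were above the olfactory receptor floor in both arrays, VIM and CD44 the brightest. OLIG2 was at the floor, and S100B and AQP4 were under it. By the same rule 4 of 7 neuronal, 2 of 6 immune, 2 of 5 endothelial and 3 of 5 epithelial markers were above the floor in both arrays. The brightest neuronal, immune or endothelial markers with DMSO were CD68 at 583.7 and GAP43 at 568.4. Both were brighter there than GFAP at 245.2 and FABP7 at 329.1, which are among the 9. KRT8 among the epithelial markers was bright at 2167 and 1809. The summed intensity of the astroglial and glioma markers was 24773 with DMSO and 19529 with G-TPP. Within it CD44 and VIM had log2 differences of -0.07 and -0.14, PDGFRA, SOX2 and SOX9 of -1.70, -1.44 and -0.98, and SLC1A3 of 0.64, and the part of these markers in the differences above was not tested. In RNA of whole cultures, fewer cells of a type and less RNA per cell cannot be told apart.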

How the data were processed

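RNA of U251 cells with DMSO or G-TPP was measured on 1 Affymetrix array each, and arrays were grouped by the labels' agent field. The deposited values are intensities per probe set on a linear scale (6.61 to 18995), made by the authors with RMA in Affymetrix Expression Console 1.1.2, per the submitters' processing notes. RMA makes the distributions of arrays alike, so a change in total RNA per cell is not visible, and the step back to linear values is not given in the sources used here. The precision is limited by the number of arrays.

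Of 33297 probe sets 19460 had 1 symbol in the platform annotation, 1754 had several and 12083 were not listed; gene IDs of 19429 were found in the RefSeq table of GRCh38.p14, which supplied current symbols. The highest-mean probe set stood for a gene. The log2 difference G-TPP minus DMSO was taken with no pseudocount, genes were kept at a brighter-array intensity of 239.2 or more, and sizes were counted at 2-fold and 1.5-fold. The floor was the 95th percentile of 338 olfactory receptor genes (172.9 with DMSO, 174.3 with G-TPP). Counting was tested on simulated data at the 2-fold threshold only. The changes put in were well beyond that threshold, so this is no check on genes near a threshold.

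With 1 array per group no test was made. Named genes are the members, with both intensities for those 1.5-fold apart and for the highest and lowest of each family, and the extremes of each partner list; other intensities, other partner genes and the grouping by histone mark were added after the values were seen. The members and lists were chosen with earlier results of these data known. Alternatives were other brightness filters, median, lowess (span 0.3) and quantile adjustment, the mean over probe sets, 16 added to each value, current symbols, a 3-fold threshold and list means; setting dim values to the floor was added after seeing the data. The tools were pandas 2.3.3, numpy 2.4.6, matplotlib 3.10.9 and statsmodels 0.14.6 under Python 3.11.15.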

Additional observations from a re-analysis of the deposited data

How the results depend on the processing

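No paired analysis was possible because each group has 1 array, and for the same reason no replicate could be left out. A move was called small below 0.17 on the log2 scale, the scatter of paired probe sets of 1 gene. This limit is wider than the size of each family's median but that of KDM, so a small move can still change a sign. Of 70 values recomputed, which were medians or means in their place, 68 moved less than that. Some could not or did not move: current symbols gave the same members, and setting dim values to the floor left each median as it was. The 2 that moved were the KMT median, 0.36 at the 75th percentile filter, where fewer genes enter, and the KDM mean, 0.38. Between median and mean the sign differed for all members (-0.05 and 0.11), for KMT (-0.03 and 0.10) and for SMARC (-0.13 and 0.03). The KMT median was also above 0 after median centring and the SIRT median at the 75th percentile filter (0.03).

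The count at 2-fold higher stayed at 3 or 4 under the other filters, scalings and the floor, and at 1.5-fold higher between 6 and 10. At 3-fold the counts were 1 higher and 0 lower, and the 1 is the measured ratio of KDM7A, whose bound of 1.66-fold is below 3-fold. The lower counts rest on CHD7 and KDM2B: at 2-fold the count was 0 and at 1.5-fold 0 at the 75th percentile filter, which neither gene passes, and after lowess centring they were 0 and 1. Median centring left 1 at 1.5-fold. KDM7A had log2 differences of 2.35 after lowess centring, 1.85 with 16 added and 0.73 against the floor. Dim probe sets, whose background pulls ratios towards 1, limit what can be said of SIRT4, SIRT5, SMARCA1, CHD5, KDM8 and KDM4D. The same holds for KDM4C and KDM7A, which were dim with DMSO.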

Other observations

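Chromatin genes further from the families also held values at both ends. Of 12 DNA methylation genes that passed the filter, 5 were above 0 and the median log2 difference was -0.13. TET1, which oxidises methylcytosine, was at 312.5 with DMSO and, just under the floor, at 170.4 with G-TPP. Its relative TET2 went from 588.5 to 933.2 (1.59-fold higher). UHRF2 went from 669.0 to 1156 (1.73-fold higher) and its paralog UHRF1, the partner of DNMT1 at replication forks, was 1.28-fold lower. Histone chaperones had a median of -0.02 over 18 genes, from ANP32A (1.52-fold lower) to ASF1A, which hands over histones H3 and H4, at 2244 and 3687 (1.64-fold higher); its paralog ASF1B was 1.29-fold lower.

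Arginine methyltransferases had a median of -0.14 over 9 genes, 8 of them below 0, with PRMT6 lowest at -0.45 and PRMT3 highest at 0.24. Lysine methyltransferases outside the KMT names had a median of -0.15 over 18 genes, with the H3K79 writer DOT1L 1.52-fold lower and SETD2 1.40-fold higher. Bromodomain and HP1 genes had a median of -0.07 over 12 genes, between TRIM28 at -0.33 and BRD1 at 0.31. Each of these comparisons rests on 1 array per group.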
